A study of Mus musculus with 4 samples.

Results

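The genes described here encode, in the nuclear genome, the proteins of mitochondrial oxidative phosphorylation. They were chosen by symbol from the deposited tables: every unique symbol that starts with Nduf, Uqcr or Atp5, the genes Sdha to Sdhd, and the subunit genes of the Cox4 to Cox8 families. This gave 92 of 23203 unique symbols. They comprised 38 complex I subunits, 7 complex I assembly factors (Ndufaf1 to Ndufaf7), 4 genes of complex II, 8 of complex III, 18 of complex IV and 15 of ATP synthase, besides Atp5s and Atp5sl, 2 genes that share the prefix but encode no core subunit. A gene was called measured where its mean log2 value over the 4 libraries exceeded 5.11, the median of such means over all symbols, and 90 of the 92 genes met this. The other two, Cox7b2 and Cox8c, had 0 reads in every library, and 0 reads was taken to allow up to 3.

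The skin came from adult C57BL/6 mice, either wild type (WT) or with an Egr1 knockout (KO) genotype typed by PCR. EGR1 is a zinc finger transcription factor induced by many stimuli. WT naive and KO naive skin had received the detergent sodium dodecyl sulfate (SDS) alone according to the treatment label, whereas WT HDM and KO HDM skin had received SDS and 100 mg of a cream with house dust mite (HDM) extract, 2 times per week for 3 weeks on the shaved neck and the ears. Each of the 4 groups held 1 library, made from 500 ng of total RNA with a kit that reads the 3′ ends of transcripts, and the labels do not say how many mice entered a library. The allele of the knockout is not described in the sources used here.

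Oxidative phosphorylation passes electrons from NADH (complex I) or succinate (complex II) through ubiquinone to complex III, cytochrome c and complex IV, which reduces oxygen. Complexes I, III and IV pump protons across the inner mitochondrial membrane, and ATP synthase uses the return of these protons to make ATP. Several subunits of complex IV exist as a widely expressed isoform and as an isoform of heart and skeletal muscle, among them COX6A2, COX7A1 and COX8B in mice, and brown fat also uses COX7A1 and COX8B.

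Some facts about the libraries touch the comparisons below. The recovered totals were 9428423 to 10108762 reads, of which 1.67% to 2.19% fell on the 92 genes. With 1 library per group there was no replicate error and no test between groups, so a log2 difference of at least 1, which is a 2-fold difference, served as a rule of size. Intervals are exact 95% intervals for counting error only, since each group holds 1 library. The reads carry no molecular identifiers, so copies of 1 molecule would count as separate reads and the intervals may be too narrow. Egr1 was not lower in the libraries labelled KO, with log2 values of 11.02 and 10.31 in WT naive and WT HDM skin against 11.53 and 11.68 in KO naive and KO HDM skin. The 3′ reads need not overlap the disrupted part of the gene, so these values check no label, and the libraries are called KO-labelled below. The KO-labelled naive library stood apart, with 336 genes at 0 reads that had at least 50 in each other library, against 0 to 5 such genes in the other libraries; none of the 92 genes was among them. Xist and Ddx3y, which are X- and Y-linked, separated HDM from naive libraries, with Xist at log2 values of 3.53 and 5.26 in the naive and 11.21 and 11.16 in the HDM libraries and Ddx3y at 10.99 and 11.15 against 1.08 and 0.94. HDM treatment and this difference cannot be told apart. The sums of cell type markers differed as well, though single markers did not all follow the sums. Keratinocyte markers summed to 6850 and 4874 reads per 1000000 library reads (CPM) in naive WT and naive KO-labelled skin and to 18145 and 14124 CPM after HDM, fibroblast markers to 18917 and 40196 against 6949 and 5344, and genes of salivary and lacrimal secretory cells to 71468 and 8298 against 73.3 and 15.8. Of 8 keratinocyte markers, 5 were past 2-fold higher and 2 lower with HDM in WT skin, and 4 and 3 in KO-labelled skin. Of 6 fibroblast markers, 1 was higher and 2 lower in WT, and 0 and 4 in KO-labelled skin. Of all measured genes, 14.5% were higher and 12.7% lower in WT, and 21.7% and 18.2% in KO-labelled skin. Hair follicle markers summed to 26.1 and 40.6 CPM in naive and 1708 and 3699 in HDM skin. Cartilage markers separated the HDM libraries from each other, with 2576 and 2261 CPM in naive WT and KO-labelled skin, and after HDM 1506 CPM in WT but 6.23 in KO-labelled skin. In whole skin, fewer cells of a type and less RNA per cell cannot be told apart. The part of these differences in the results below was not tested.

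Most oxidative phosphorylation genes kept a similar level in all 4 libraries, while single genes such as Cox4i2, Sdhd and Ndufa4l2 differed widely. Of the 90 measured genes, 66 (73.3%) stayed within 2-fold in all 4 comparisons, against 42.9% of all measured genes, and 40 stayed within 1.5-fold. These genes are abundant, and abundant genes vary less: among genes with a mean log2 value of at least 10, the share within 2-fold in all comparisons was 76.6% (49 of 64) for the oxidative phosphorylation genes and 62.4% for all genes. The gene with the smallest range over the 4 libraries was Cox6a2, the muscle isoform of a complex IV subunit, which spanned 0.12 on the log2 scale. The next were Ndufb5, a complex I accessory subunit (0.25), and Ndufa10, a complex I subunit of the matrix side of the membrane arm (0.27).

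**Figure D1:**
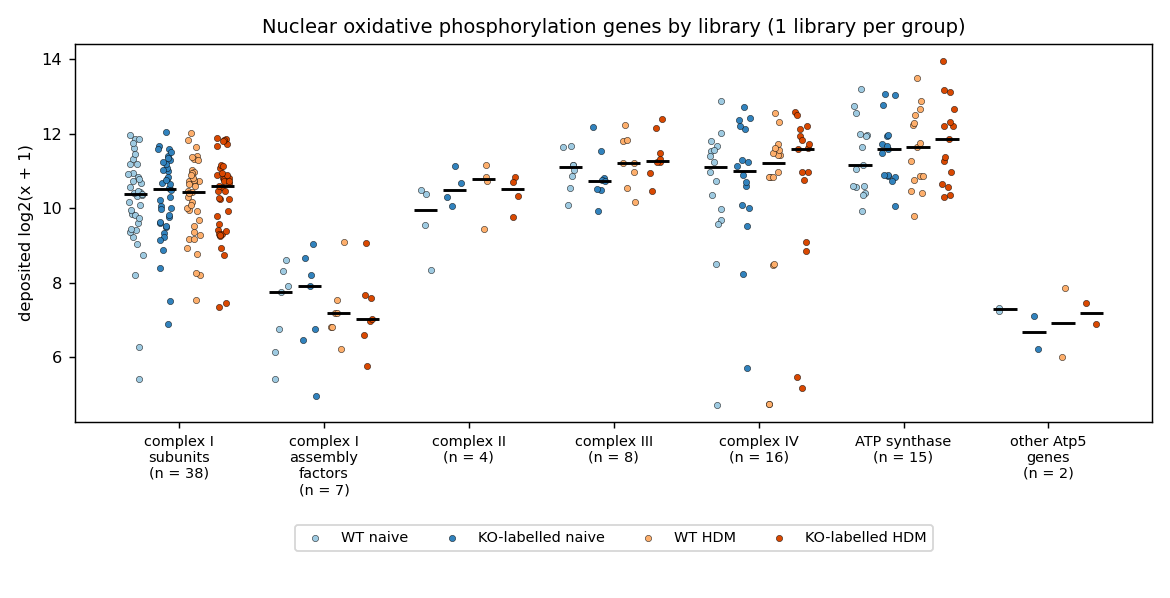
Deposited log2 values of the measured oxidative phosphorylation genes in the 4 libraries, grouped by respiratory complex. Each point is 1 gene in 1 library, black bars are medians, and no error is drawn because each group holds 1 library. Most genes lie at similar heights in the 4 libraries, while Cox4i2 lies at 8.50 and 8.24 in the naive libraries and at 4.75 and 5.16 in the HDM libraries.

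According to the labels, no group received the cream without HDM extract, so cream and extract cannot be told apart. HDM against naive in WT skin compared SDS plus the HDM cream with SDS alone. Here 12 of the 90 measured genes (13.3%) differed by 2-fold or more, 7 higher and 5 lower with HDM, beside 27.2% of all measured genes (14.5% higher, 12.7% lower). The median log2 difference of the 90 was 0.08 against 0.03 over all measured genes. In KO-labelled skin 16 genes (17.8%) differed, 10 higher and 6 lower, beside 39.9% of all measured genes (21.7% higher, 18.2% lower), with medians of 0.07 and 0.06. Among genes with a mean log2 value of at least 10, the shares were 6.25% against 22.3% in WT skin and 18.8% against 25.6% in KO-labelled skin. The naive comparison of KO-labelled with WT skin had 7 genes past 2-fold (7.78%), 5 higher and 2 lower, beside 30.7% of all measured genes (13.6% higher, 17.1% lower). Computed from CPM in place of the deposited scale, 5 were higher and 0 lower; that scaling raised the median difference of all measured genes by 0.12. In HDM skin 0 of the 90 genes differed by 2-fold between genotypes, beside 7.72% of all measured genes (3.06% higher, 4.66% lower). Among genes with a mean log2 value of at least 10, the genotype shares were 4.69% against 9.27% in naive skin and 0 genes against 4.66% in HDM skin. The medians over the 90 genes were 0.14 in naive and 0.15 in HDM skin, against −0.03 and −0.01 over all measured genes, and CPM raised the latter by 0.10.

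The 2 HDM comparisons share no library. Across the 90 genes their log2 differences had a Pearson correlation of 0.62 and a Spearman correlation of 0.62, with the same sign in 68 genes (75.6%). All measured genes gave a Pearson correlation of 0.52 and the same sign in 66.3%, and genes with a mean log2 value of at least 10 gave 0.73 and 72.3%. Genes are not independent replicates, and both comparisons share the split of Xist and Ddx3y described above. In both genotypes 5 genes (5.56%) were past 2-fold in the same direction, against 13.8% of all measured genes: Cox5b and Cox6a1 were higher, and Cox4i2, Cox7a1 and Ndufb2 were lower. Among the 90, 0 genes were past 2-fold in opposite directions, against 1.76% of all measured genes.

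**Figure D2:**
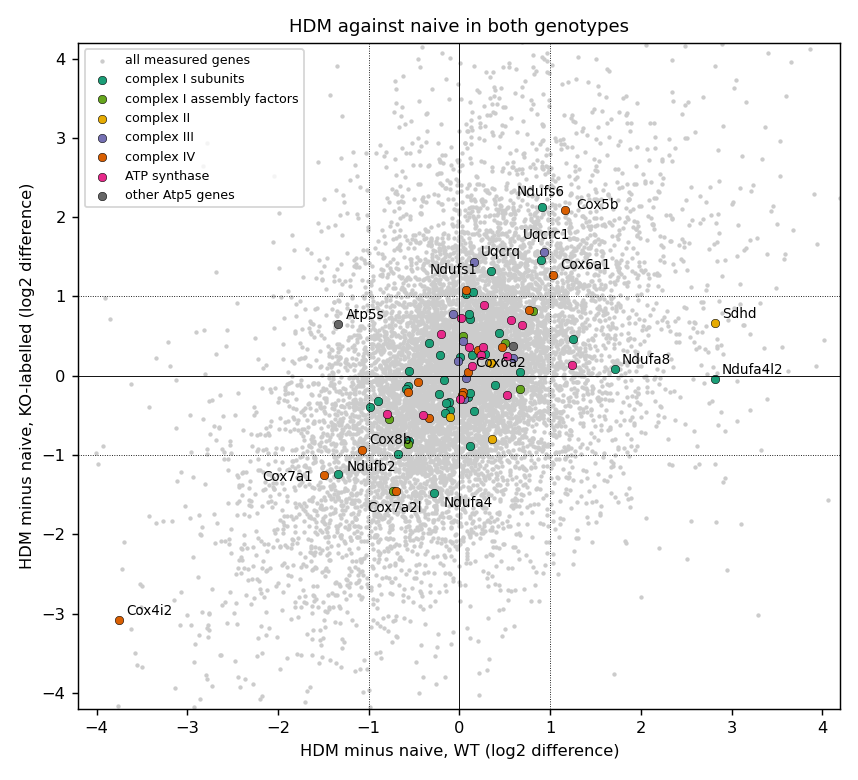
HDM minus naive log2 difference in WT (x axis) and KO-labelled skin (y axis) for each measured oxidative phosphorylation gene, coloured by complex, over all measured genes in grey. Dotted lines mark 2-fold, and grey genes beyond the axis limits are not drawn. Cox4i2 lies lowest on both axes (−3.75 and −3.08), and Cox5b lies past 2-fold higher on both (1.17 and 2.08).

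Among the complex I subunits the medians lay near 0, and single subunits stood apart. In WT skin 3 of 38 were higher with HDM by 2-fold and 1 was lower. In KO-labelled skin 5 were higher and 2 lower. These shares, 10.5% and 18.4%, stood beside 27.2% and 39.9% of all measured genes. The medians of the 38 subunits were 0.06 and −0.09. Ndufs3, a subunit of the arm that reaches into the matrix, differed with HDM by −0.55 in WT and by −0.82 in KO-labelled skin. Ndufs1, the largest subunit of the electron input module, had log2 values of 10.08, 9.14, 10.42 and 10.46 in WT naive, KO-labelled naive, WT HDM and KO-labelled HDM skin. Ndufv1, which binds the flavin that accepts electrons from NADH, had 10.83, 9.81, 10.94 and 10.59 in that order. Both were lowest in the KO-labelled naive library, which stood apart from the other 3.

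Ndufs6, an accessory subunit that carries a zinc ion (chromosome 13, 73319838 to 73328542, minus strand, GRCm38), had log2 values of 10.45, 9.53, 11.36 and 11.66 in WT naive, KO-labelled naive, WT HDM and KO-labelled HDM skin. Both HDM libraries were higher than both naive libraries. It was 1.88-fold higher with HDM in WT (1.75 to 2.01) and 4.38-fold in the KO-labelled pair of libraries (4.06 to 4.74). Ndufb2, a small accessory subunit of the membrane arm, went the other way, with 9.61 in naive and 8.27 in HDM skin of WT, and 9.99 and 8.74 in KO-labelled skin. It was 2.54-fold lower in WT (2.21 to 2.92) and 2.37-fold lower in KO-labelled skin (2.12 to 2.65). Ndufa8, an accessory subunit of the intermembrane space side, was lowest in WT naive skin, with 8.20 there and 9.22, 9.91 and 9.30 in KO-labelled naive, WT HDM and KO-labelled HDM skin. Past 2-fold in 1 genotype were also Ndufab1, the mitochondrial acyl carrier protein (1.26 in WT), Ndufa3, Ndufc1 and Ndufb8, accessory subunits of the membrane arm (1.46, 1.05 and 1.03 in KO-labelled skin), and Ndufs1 (1.32 in KO-labelled skin). Between genotypes in HDM skin, the complex I subunits ranged from −0.75 for Ndufa4l2 to 0.54 for Ndufs5.

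Ndufa4 and Ndufa4l2 carry complex I names, but the NDUFA4 protein is now placed in complex IV, and NDUFA4L2 is its paralog, known as a target of hypoxia-inducible factor. Ndufa4l2 (chromosome 10, 127514967 to 127517154, plus strand) had log2 values of 5.40, 7.51, 8.21 and 7.46 in WT naive, KO-labelled naive, WT HDM and KO-labelled HDM skin, from 39, 193, 274 and 187 reads. WT naive skin stood lowest, and the other 3 lay within 0.75 of each other. It was 7.17-fold higher with HDM in WT skin (5.11 to 10.3), while the ratio in KO-labelled skin was 0.97 (0.79 to 1.19). Ndufa4 had 9.95, 11.38, 9.67 and 9.91, so the KO-labelled naive library stood highest. Ndufa4l2 reads made up 4.0% of the reads on this pair in WT naive (2.86 to 5.43) and 26.6% in WT HDM skin (23.9 to 29.4). In KO-labelled skin they made up 6.33% without HDM (5.49 to 7.26) and 15.4% with it (13.5 to 17.6). This share was higher in both HDM libraries than in both naive libraries.

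The 7 assembly factors of complex I build the complex and are not part of it. Their mean log2 values ran from 5.58 (Ndufaf6) to 8.86 (Ndufaf4). None was past 2-fold with HDM in WT skin, where they ranged from −0.78 (Ndufaf3) to 0.82 (Ndufaf6). Of all measured genes, 27.2% were past 2-fold in WT and 39.9% in KO-labelled skin. In KO-labelled skin 1 of 7 was past 2-fold. This was Ndufaf5, a methyltransferase-like factor that hydroxylates an arginine of NDUFS7, with 7.91, 9.02, 7.18 and 7.58 in WT naive, KO-labelled naive, WT HDM and KO-labelled HDM skin. It was highest in the KO-labelled naive library and 2.74-fold lower with HDM in KO-labelled skin (2.33 to 3.23). Ndufaf6 had the lowest genotype differences of the 7, −0.45 in naive and −0.45 in HDM skin.

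In complex II, the 4 subunits did not move as a unit. Sdhd, a membrane anchor (chromosome 9, 50596357 to 50603812, minus strand), had log2 values of 8.34, 10.05, 11.15 and 10.71 in WT naive, KO-labelled naive, WT HDM and KO-labelled HDM skin, from 306, 1132, 2112 and 1783 reads. WT naive skin was well below the other 3 libraries. With HDM, Sdhd was 7.05-fold higher in WT (6.25 to 7.97) and 1.58-fold in the KO-labelled pair (1.47 to 1.70). Naive KO-labelled skin was 3.28-fold above naive WT skin (2.89 to 3.73). Its partner anchor Sdhc had 9.54, 10.29, 9.44 and 9.77, the flavoprotein Sdha 10.37, 11.13, 10.72 and 10.33, and the iron-sulfur protein Sdhb 10.49, 10.68, 10.83 and 10.84. All 4 were above WT in KO-labelled naive skin, by 0.20 (Sdhb) to 1.71 (Sdhd), while in HDM skin they lay between −0.44 and 0.33. Of all 11600 measured genes, 5603 were above WT in KO-labelled naive skin.

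Of the 8 genes of complex III, 6 lay above 0 with HDM in each genotype. Of all 11600 measured genes, 5967 did so in WT and 6045 in KO-labelled skin. None of the 8 was past 2-fold in WT skin (median 0.06), and 2 were past it in KO-labelled skin (median 0.33). The shares of all measured genes past 2-fold were 27.2% and 39.9%. Uqcrc1, a core protein of the matrix side, had log2 values of 10.85, 9.91, 11.79 and 11.48 in WT naive, KO-labelled naive, WT HDM and KO-labelled HDM skin. It was higher in both HDM libraries than in both naive libraries, 1.91-fold in WT (1.80 to 2.03) and 2.96-fold in KO-labelled skin (2.76 to 3.18). Uqcrq, a small membrane subunit, had 11.67, 10.72, 11.82 and 12.16, with the KO-labelled naive library alone standing low. The catalytic Rieske iron-sulfur protein Uqcrfs1 was steady, at 10.54, 10.76, 10.53 and 10.94. Uqcrh, the hinge protein near cytochrome c1, was lowest in WT naive skin with 11.65 and had 12.18, 12.24 and 12.40 in the others. The core protein gene Uqcrc2 had the lowest difference in WT skin (−0.07) and Uqcrb the lowest in KO-labelled skin (−0.29).

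In complex IV, 5 of 16 measured genes were past 2-fold with HDM in WT skin (2 higher, 3 lower) and 6 in KO-labelled skin (3 higher, 3 lower). These shares, 31.2% and 37.5%, were near the 27.2% and 39.9% of all measured genes. For 3 of its nuclear subunits a muscle-type isoform gene (Cox6a2, Cox7a1, Cox8b) could be set beside its widely expressed counterpart (Cox6a1, Cox7a2, Cox8a). The promoters of these genes are shown where RefSeq gave a window, which was so for all but Cox6a2, to set each widely expressed gene beside its muscle-type isoform. The stretches are the 250 bases before the RefSeq start in GRCm38.p6, with matches to the motif letters for NRF1 (GCGC, 1 base of any kind, then TGCGC) and ETS factors (CCGGAAG) in capitals on either strand. Cox6a1 is at chr5:115348959-115349208, Cox7a2 at chr9:79759854-79760103 and Cox8a at chr19:7217617-7217866, all on the minus strand, Cox7a1 at chr7:30183921-30184170 on the plus strand and Cox8b at chr7:140900447-140900696 on the minus strand.
Cox6a1: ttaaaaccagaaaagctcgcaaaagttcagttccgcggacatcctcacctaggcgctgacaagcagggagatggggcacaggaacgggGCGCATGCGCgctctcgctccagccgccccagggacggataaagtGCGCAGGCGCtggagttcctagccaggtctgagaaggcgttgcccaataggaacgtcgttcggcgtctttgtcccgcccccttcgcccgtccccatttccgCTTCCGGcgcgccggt
Cox7a2: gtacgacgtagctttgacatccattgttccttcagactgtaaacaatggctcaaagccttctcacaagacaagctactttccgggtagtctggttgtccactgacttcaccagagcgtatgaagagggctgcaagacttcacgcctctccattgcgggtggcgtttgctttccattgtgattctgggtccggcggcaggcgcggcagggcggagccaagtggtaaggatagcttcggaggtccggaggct
Cox7a1: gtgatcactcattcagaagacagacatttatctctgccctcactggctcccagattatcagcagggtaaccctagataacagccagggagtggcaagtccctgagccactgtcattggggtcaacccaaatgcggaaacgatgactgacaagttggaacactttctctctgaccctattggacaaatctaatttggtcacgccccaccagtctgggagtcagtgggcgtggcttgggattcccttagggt
Cox8a: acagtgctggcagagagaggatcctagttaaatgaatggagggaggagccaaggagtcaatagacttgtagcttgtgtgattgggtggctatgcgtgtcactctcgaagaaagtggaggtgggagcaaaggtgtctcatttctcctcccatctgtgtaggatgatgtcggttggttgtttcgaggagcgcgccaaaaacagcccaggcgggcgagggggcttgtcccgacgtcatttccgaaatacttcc
Cox8b: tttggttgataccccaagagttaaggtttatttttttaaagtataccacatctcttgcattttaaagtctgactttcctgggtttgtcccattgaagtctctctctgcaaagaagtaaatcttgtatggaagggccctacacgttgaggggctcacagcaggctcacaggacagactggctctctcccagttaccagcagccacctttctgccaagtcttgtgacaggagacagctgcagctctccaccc
Cox6a1 held an NRF1 match 162 and another 117 bases before the start, counted to the first base of the match, and an ETS match 16 bases before it, while the other 4 stretches held none, those of the widely expressed Cox7a2 and Cox8a included. NRF1 and the ETS factor GABP are known regulators of respiratory chain genes. RefSeq windows of 250 bases before to 50 after the start were matched by symbol for 73 of the 92 genes, as 78 windows. In this longer window Cox8a did hold an ETS match, which the stretch shown above does not include in full. The NRF1 letters lay in 25.6% of these windows and in 4.6% of all 32851 windows, the ETS letters in 21.8% and 8.86%, and those of YY1 (AANATGGCG) in 12.8% and 2.38%. The letters for EGR1 (GCGTGGGCG or GCGGGGGCG) lay in 2.56% and 3.47%, and those for MEF2, a muscle factor (CTA, 4 bases of any kind, then TAG), in 2.56% and 3.69%. All motifs were searched on both strands, and a match of letters is no evidence of binding.

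Cox7a1 (chromosome 7, 30184144 to 30186078, plus strand) had log2 values of 9.96, 10.09, 8.47 and 8.84 in WT naive, KO-labelled naive, WT HDM and KO-labelled HDM skin. Its HDM libraries were below both naive libraries, 2.82-fold in WT (2.49 to 3.21) and 2.39-fold in KO-labelled skin (2.15 to 2.66). Cox7a2 had 10.96, 10.89, 11.73 and 11.72 in the same order and was higher with HDM, 1.70-fold in WT (1.61 to 1.81) and 1.78-fold in KO-labelled skin (1.68 to 1.88). The share of Cox7a1 in the reads of the pair was 33.3% in naive and 9.42% in HDM skin of WT, and 36.5% and 11.9% in KO-labelled skin.

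Cox8b (chromosome 7, 140898945 to 140900446, minus strand) had 9.56, 10.01, 8.49 and 9.08, again lower in both HDM libraries than in both naive libraries. It was 2.11-fold lower in WT (1.85 to 2.41) and 1.91-fold lower in KO-labelled skin (1.73 to 2.12). Cox8a had 11.55, 11.12, 11.62 and 12.20, highest in KO-labelled HDM skin. Cox8b made up 20.1% and 31.7% of the reads of its pair in naive skin and 10.2% and 10.3% in HDM skin. The Cox6a pair differed through the widely expressed gene. Cox6a2 (chromosome 7, 128205435 to 128206387, minus strand) had 10.72, 10.70, 10.82 and 10.75, and its ratio with HDM was 1.07 in WT (1.0 to 1.15) and 1.03 in KO-labelled skin (0.97 to 1.10). Cox6a1 had 11.53, 11.30, 12.56 and 12.57, higher with HDM by 2.05-fold (1.96 to 2.14) and 2.42-fold (2.31 to 2.53). The Cox6a2 share was 36.4% and 39.8% in naive and 23.1% and 22% in HDM skin.

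For the 3 pairs summed, the muscle-type share was 30.2% (29.4 to 31.1) in WT naive and 16.7% (16.1 to 17.3) in WT HDM skin. In KO-labelled skin it was 36.3% (35.4 to 37.2) without HDM and 16.1% (15.6 to 16.6) with it. A share within a library does not depend on how the libraries were scaled. The 23 markers of skeletal muscle, which expresses these isoforms, summed to 7665 and 11070 CPM in naive WT and naive KO-labelled skin and to 5614 and 7752 CPM after HDM. Of the 22 measured markers, 1 was past 2-fold higher and 4 lower with HDM in WT skin, with a median of −0.31, beside 14.5% higher and 12.7% lower of all measured genes. The KO-labelled libraries gave 1 higher and 8 lower and a median of −0.59, beside 21.7% and 18.2%. Acta1, skeletal actin, was 0.61 and 0.35 higher with HDM, and Casq1, a calcium store protein of fast fibres, was −1.70 and −1.71. Only Myh7 was at 0 among the markers, in KO-labelled HDM skin. Ucp1, which defines brown fat, had 6, 0, 2 and 0 reads in WT naive, KO-labelled naive, WT HDM and KO-labelled HDM skin. The 6 brown fat markers summed to 407, 155, 77.9 and 176 CPM in that order and did not move as a unit. Cidea, a lipid droplet gene, differed with HDM by −3.35 in WT and 0.23 in KO-labelled skin, and Dio2, a thyroid hormone deiodinase, by 3.65 and 4.41. The 10 markers of adipocytes summed to 2125 and 6787 CPM in naive and 1085 and 2324 in HDM skin. Of the 9 measured, 0 were past 2-fold higher and 4 lower with HDM in WT skin. In KO-labelled skin 1 was higher, Lipe, and 5 were lower. The shares of all measured genes are those given above for the muscle markers. The part of muscle or fat in the isoform shares was not tested.

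**Figure D3:**
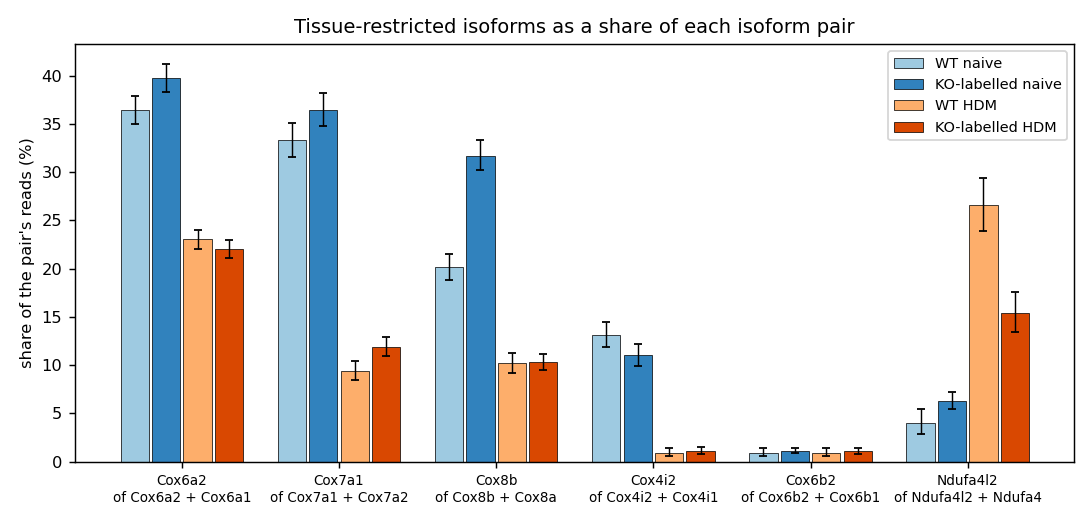
Share of reads (%) on the tissue-restricted isoform within each isoform pair, by library. Error bars are exact 95% counting intervals and no replicate spread exists. The muscle-type isoforms Cox6a2, Cox7a1 and Cox8b take a smaller share in both HDM libraries than in both naive libraries, and the Cox4i2 share is 13.1% and 11.0% in naive against 0.93% and 1.12% in HDM skin.

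Cox4i2, the isoform of subunit 4 known from lung and from oxygen-sensing cells, showed the widest differences with HDM of all 90 genes in both genotypes (chromosome 2, 152754173 to 152765037, plus strand). Its log2 values were 8.50, 8.24, 4.75 and 5.16 in WT naive, KO-labelled naive, WT HDM and KO-labelled HDM skin, from 343, 322, 24 and 37 reads. Both HDM libraries were far below both naive libraries. It was 14.0-fold lower in WT (9.25 to 22.2) and 8.68-fold lower in KO-labelled skin (6.16 to 12.5). The widely expressed Cox4i1 had 11.23, 11.25, 11.44 and 11.58, and the share of Cox4i2 in the pair was 13.1% and 11.0% in naive and 0.93% and 1.12% in HDM skin. Cox4i2 is also known from pericytes. A list of 8 pericyte markers, chosen after values were seen, summed to 135 and 178 CPM in naive and 91.3 and 102 in HDM skin, with medians of −0.76 and −0.73 over its 6 measured markers. Single markers did not all follow the sums. In WT skin 0 of the 6 were past 2-fold higher with HDM and 2 were lower. In KO-labelled skin 2 were higher, Rgs5 and Notch3, and 3 were lower. The shares of all measured genes were 14.5% higher and 12.7% lower in WT, and 21.7% and 18.2% in KO-labelled skin. The part of pericytes in the Cox4i2 values was not tested.

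Cox5b, a zinc-binding subunit (chromosome 1, 36691449 to 36693681, plus strand), was the complex IV gene with the largest increase with HDM. It had log2 values of 9.68, 9.53, 10.84 and 11.61 in WT naive, KO-labelled naive, WT HDM and KO-labelled HDM skin. Both HDM libraries were above both naive libraries, 2.25-fold in WT (2.06 to 2.45) and 4.24-fold in KO-labelled skin (3.93 to 4.59), and in HDM skin the KO-labelled library was 1.70-fold above WT (1.6 to 1.80). Its partner Cox5a, which with Cox4i1 is among the first nuclear subunits to be assembled, had 10.36, 10.59, 10.83 and 10.96. Cox7a2l, a factor that joins complexes III and IV, was highest in KO-labelled naive skin, with 11.67, 12.43, 10.97 and 10.98, and both HDM values were below both naive values. Cox6b1, a subunit of the intermembrane space, had 11.39, 12.13, 11.43 and 11.92, higher in both KO-labelled libraries, and its testis isoform Cox6b2 had 24, 55, 24 and 46 reads, or 0.94%, 1.13%, 0.93% and 1.10% of the pair. Cox7b, which is X-linked, had 12.03, 12.20, 11.57 and 12.11, and its testis isoform Cox7b2 had 0 reads. The X-linked genes Cox7b, Ndufa1 and Ndufb11 differed with HDM by −0.46, −0.11 and −0.34 in WT and by −0.09, −0.43 and 0.42 in KO-labelled skin. None of these was past 2-fold.

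In ATP synthase, 1 of 15 genes (6.67%) was past 2-fold with HDM in WT skin and 0 in KO-labelled skin. All measured genes gave 27.2% and 39.9%. The medians of the 15 genes were 0.24 and 0.26. The F1 head subunits, which make ATP, stayed close to their naive levels in WT skin, at 0.01 (Atp5c1) to 0.24 (Atp5d). In KO-labelled skin they spread more widely, from −0.30 (Atp5c1) to 0.73 (Atp5e). The catalytic beta subunit Atp5b had log2 values of 12.56, 12.76, 12.67 and 13.12 in WT naive, KO-labelled naive, WT HDM and KO-labelled HDM skin, and the alpha subunit Atp5a1 had 12.73, 13.05, 12.87 and 13.17. Both were highest in KO-labelled HDM skin. Atp5e, the epsilon subunit, was 1.57-fold higher in KO-labelled than in WT HDM skin (1.51 to 1.65), with 11.64, 11.58, 11.65 and 12.31. Of the 3 genes for the c-ring, the rotor in the membrane, Atp5g3 took 80.7%, 74.1%, 77.8% and 84.6% of the reads and was the gene with the largest increase in KO-labelled skin (0.90). Atp5g1 and Atp5g2 differed by 0.53 each in WT and by 0.25 and −0.25 in KO-labelled skin. The 3′ ends of Atp5g1 and Atp5g2 have near-identical copies elsewhere. Their values and the c-ring shares are uncertain if reads were divided between the copies.

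Atp5h, the d subunit of the peripheral stalk, had 11.04, 11.73, 12.28 and 11.86 and was 2.36-fold higher with HDM in WT skin (2.24 to 2.48), with WT naive skin lowest. Its 3′ end has a near-identical pseudogene copy, so its values are uncertain if reads were divided between them. Atp5j, the F6 stalk protein, went the other way, with 10.57, 10.82, 9.77 and 10.34, and Atp5l, a membrane subunit, had 11.16, 11.48, 10.76 and 10.98. The lowest naive genotype difference was −0.29 for Atp5j2. Atp5s, a coupling factor B gene outside the core enzyme, had 151, 79, 58 and 124 reads, log2 values of 7.33, 6.23, 5.99 and 6.88. Atp5sl had 7.25, 7.10, 7.84 and 7.46 and was within 2-fold in all comparisons.

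**Figure D4:**
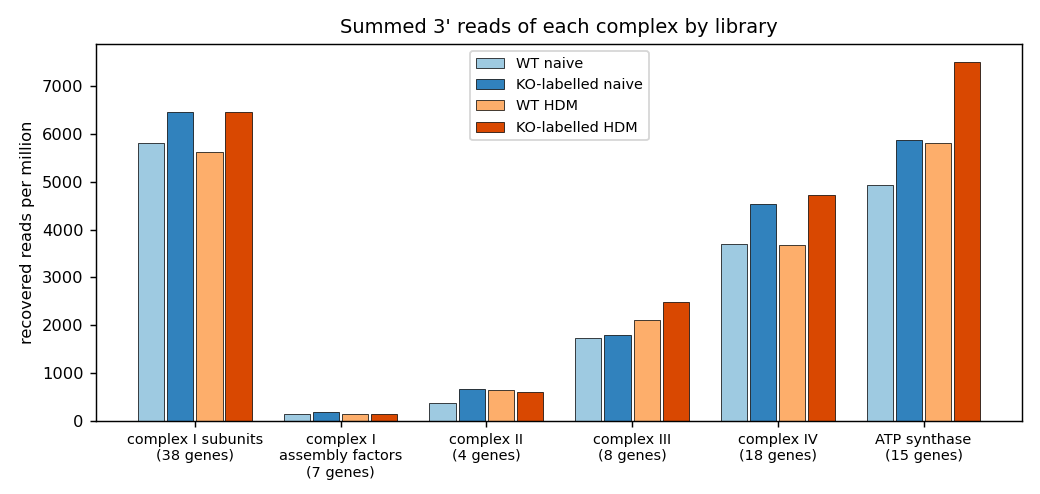
Recovered 3′ reads in CPM, summed over the genes of each complex, by library, without error bars since each group holds 1 library. The ATP synthase sum is 4931 in WT naive and 7508 in KO-labelled HDM skin, and the complex II sum is lowest in WT naive at 377.

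The CPM were also summed over the genes of each complex. These are sums of transcript reads over unlike numbers of genes and do not measure the amounts of the protein complexes. Single abundant genes weigh in them, such as Atp5g3 with 9036 reads in KO-labelled naive and 16775 in KO-labelled HDM skin. Ndufa4 and Ndufa4l2 were counted with complex I. Complex I had 5817, 6460, 5623 and 6453 in WT naive, KO-labelled naive, WT HDM and KO-labelled HDM skin, complex II 377, 666, 638 and 596, and complex III 1733, 1794, 2100 and 2482. Complex IV had 3703, 4538, 3670 and 4728 and ATP synthase 4931, 5867, 5819 and 7508. In CPM, the KO-labelled library was above the WT library of the same treatment in each complex except complex II in HDM skin. That scaling raised the median genotype difference of all measured genes by 0.12 in naive and 0.095 in HDM skin. On the deposited scale, complex III had a median genotype difference of −0.07 in naive skin, with 4 of 8 genes above 0. With HDM, complex III and ATP synthase were higher in both genotypes, while complex I was lower in WT skin and nearly level in KO-labelled skin. A CPM value depends on all other genes, and the secretory genes named above took 71468 CPM in WT naive skin.

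The genotype comparisons had their own pattern. In naive skin the 5 genes higher by 2-fold in the KO-labelled library were Ndufa4l2 (2.11), Sdhd (1.71), Ndufa4 (1.44), Ndufaf5 (1.11) and Ndufa8 (1.03), and the 2 lower were Atp5s (−1.10) and Ndufv1 (−1.02). Complex IV ranged from −0.43 (Cox8a) to 0.99 (Cox6b2), and complex III from −0.95 (Uqcrq) to 0.54 (Uqcrh). In HDM skin complex IV had a median of 0.37 and ranged from −0.07 (Cox6a2) to 0.77 (Cox5b), with 14 of 16 genes above 0. Complex III had 7 of 8 above 0, from −0.31 (Uqcrc1) to 0.41 (Uqcrfs1), and ATP synthase 11 of 15, from −0.41 (Atp5h) to 0.66 (Atp5e). Of all 11600 measured genes, 5722 lay above 0 in this comparison, as did 956 of the 1802 genes with a mean log2 value of at least 10. The differences of these complexes were small against the 2-fold rule. Without replicates, the spread between animals that they should be set against was not measured.

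**Figure D5:**
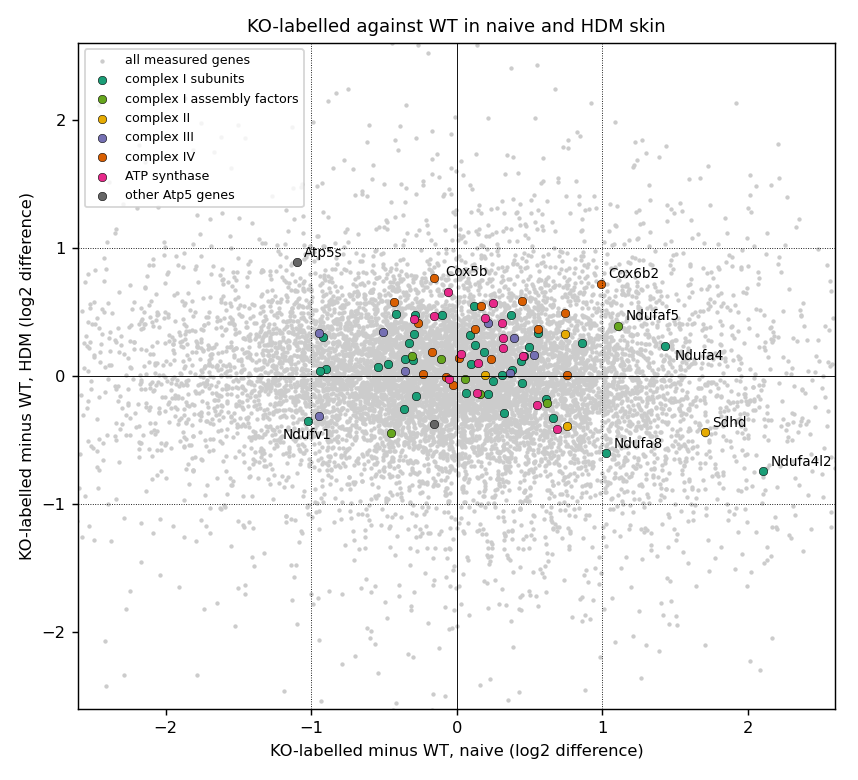
KO-labelled minus WT log2 difference in naive (x axis) and HDM skin (y axis) for each measured oxidative phosphorylation gene, coloured by complex, over all measured genes in grey. Dotted lines mark 2-fold, and grey genes beyond the axis limits are not drawn. Differences span −1.10 to 2.11 in naive skin but −0.75 to 0.89 in HDM skin.

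As a secondary result, limma was run on all 11600 measured genes with additive effects of HDM and genotype. Its error is the departure from additivity, with 1 residual degree of freedom, moderated by a prior of 7.95 degrees of freedom shared across genes. For the HDM term 2 of the 90 genes passed a Benjamini-Hochberg adjusted p of 0.05, beside 4.12% of all measured genes. Cox4i2 had a log2 difference of −3.42 ± 0.75 (SE) with an adjusted p of 0.039 in limma, and Cox5b one of 1.63 ± 0.36 with an adjusted p of 0.041. Ndufs6 followed with an adjusted p of 0.062 and Uqcrc1 with 0.075. An unadjusted p under 0.05 was reached by 14 of the 90 genes and by 20.4% of all. For the genotype term limma called 0 genes, with 0 of the 90 genes and 3.28% of all at an unadjusted p under 0.05. Both calls for the HDM term were lost in limma without the intensity trend and without the filter on low values.

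Other genes of mitochondrial function were counted by lists. Mitochondrial ribosomal proteins, which translate the subunits encoded in mitochondrial DNA, had 75 of 77 genes measured. The shares of all measured genes past 2-fold, to be read beside each count here, were 14.5% higher and 12.7% lower in WT skin and 21.7% and 18.2% in KO-labelled skin. With HDM 11 ribosomal protein genes were past 2-fold higher and 3 lower in WT skin, with a median of 0.34, and 15 were higher and 4 lower in the KO-labelled pair, with a median of 0.39. The widest differences were those of Mrpl15 (3.28) and Mrpl9 (2.91) in WT and of Mrps2 (3.52) and Mrpl35 (2.43) in KO-labelled skin. Mrpl15 and Mrpl9 had only 11 and 27 reads in WT naive skin, and differed by 1.735 and −1.336 in KO-labelled skin. Mrps2 and Mrpl35 were lowest in the KO-labelled naive library (58 and 165 reads) and differed by 0.695 and −0.106 in WT skin. The 17 enzymes of the tricarboxylic acid cycle and the pyruvate dehydrogenase complex, which supply NADH, had 0 past 2-fold in WT skin (median −0.26), and 3 higher and 1 lower in KO-labelled skin (median 0.36). Idh3a (0.98) and Pdha1 (−0.77) differed most in WT, and Dlat (1.47) and Idh3b (−1.45) in KO-labelled skin. In the KO-labelled naive library Dlat was lowest and Idh3b highest, and in WT skin they differed by −0.546 and −0.494. Of 20 assembly factors of complex IV, 18 were measured, with 1 lower in WT and 4 higher and 2 lower in KO-labelled skin, and medians of −0.23 and −0.19. Pet100 (−1.17) and Surf1 (−0.95) differed most in WT, and Cox19 (1.90) and Lrpprc (1.45) in KO-labelled skin. Cox19 and Lrpprc were lowest in the KO-labelled naive library, and in WT skin they differed by −0.027 and −0.173. Of 13 regulators of mitochondrial biogenesis, 12 were measured, with 4 higher and 1 lower in WT (median 0.58) and 5 higher and 0 lower in KO-labelled skin (median 0.44). Ppargc1a (−1.56) and Gabpb1 (1.48) differed most in WT, and Yy1 (2.62) and Polrmt (2.48) in KO-labelled skin. Yy1, a transcription factor, had log2 values of 8.39, 6.21, 9.40 and 8.83 in WT naive, KO-labelled naive, WT HDM and KO-labelled HDM skin. Ppargc1a, the coactivator that drives mitochondrial biogenesis, had 107, 35, 35 and 52 reads, highest in WT naive skin. The genes encoded in mitochondrial DNA were not analysed here.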

How the data were processed

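Skin RNA of 4 mouse groups with 1 library each was sequenced from the 3′ ends of transcripts. For each library the authors deposited log2 values on 23282 lines of gene symbols. The submitters' processing notes name Bowtie2, bedtools and the build mm10; what each did, how values were normalized and which annotation served is not given in the sources used here, nor are versions. The values behave as log2(x + 1): after conversion, low values were whole multiples of a step, and reads were recovered by dividing by it. Of the genes with up to 200 reads, 95.7% to 99.1% came out whole within 0.1 read. Larger numbers are approximate, since the values have 3 decimals. Totals were 9591382, 9927311, 9428423 and 10108762 reads in WT naive, KO naive, WT HDM and KO HDM.

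Symbols on more than 1 line (35 symbols, 79 lines) were left out. Log2 differences use the deposited scale. Folds with intervals use the recovered reads, put back on that scale by the step of each library. Their Clopper-Pearson limits are conditional on the summed reads. Sums in CPM use reads scaled to a total of 1000000. No test was possible between single libraries. The additive fit used limma 3.58.1 in R 4.3.3; it and the recovery of reads were tested on simulated data. Other steps used pandas 2.3.3, numpy 2.4.6, scipy 1.17.1 and matplotlib 3.10.9 under Python 3.11.15. Gene positions are from GENCODE M21 (GRCm38, which is mm10), and promoters from RefSeq. BLAST 2.17.0 compared the last 150 bases of each gene's transcripts with all other transcripts. At 95% identity over at least 100 bases, 8 of 91 genes had a copy elsewhere: Atp5c1, Atp5g1, Atp5g2, Atp5h, Atp5o, Cox7c, Ndufa11 and Ndufs5, whose values are therefore uncertain.

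Named genes are the tissue-restricted isoforms and their counterparts, the extremes of each complex in each comparison, genes past 2-fold in both HDM or both genotype comparisons, and the catalytic or defining subunits; Ndufb5, Ndufa10, Ndufa3, Ndufb8, Ndufc1, Ndufab1, Ndufa8, Cox7a2l, Ndufs3, the F1 head and c-ring subunits not named by that rule and the X-linked genes were added after their values were seen. The genes and lists were chosen with earlier results of these data known. Alternatives were CPM, centred libraries, a pseudocount of 10, other filters and a 1.5-fold rule. The values of one gene are not reported here.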

Additional observations from a re-analysis of the deposited data

Results flagged for a closer look

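Of the 90 measured genes, 3 had differences of at least 1.5-fold in opposite directions in 2 groups under the same contrast. This was 1 of 90 for HDM against naive, beside 6.18% of all measured genes, and 3 of 90 for genotype, beside 7.24%. With 1 library per group, none of these differences between groups was tested. Ndufa4l2 was higher in KO-labelled than in WT naive skin by 2.11 on the log2 scale and stood at −0.75 in HDM skin. Ndufa8 had 1.03 in naive and −0.60 in HDM skin in the same contrast. Atp5s had −1.10 in naive and 0.89 in HDM skin, and with HDM against naive it had −1.34 in WT and 0.65 in KO-labelled skin. Its levels rest on 58 to 151 reads per library.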

How the results depend on the processing

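No paired analysis was possible because each group holds 1 library. Each comparison uses 2 libraries, so leaving one out removes the comparisons that hold it and does not alter the others, and the additive fit would keep no residual degree of freedom. Under a 1.5-fold rule 30 and 33 genes differed with HDM in WT and KO-labelled skin, and 22 and 7 between genotypes in naive and HDM skin, in place of 12, 16, 7 and 0. Counts past 2-fold stayed within 1.5 times under CPM, centred libraries, a pseudocount of 10, other filters and without the 3 muscle-type genes. Summing the 3 isoform pairs gave muscle-type shares of 30.2%, 36.3%, 16.7% and 16.1%, away from those of most single pairs. In the additive limma fit the HDM term called 0 genes without the intensity trend (6 at an unadjusted p under 0.05), 0 without a filter (12) and 9 at a mean log2 of at least 7, in place of 2; the cause was not tested. No result in these comparisons changed sign past 2-fold under them. Read depth limits Cox4i2 in HDM skin (24 and 37 reads), Ndufa4l2 in WT naive skin (39) and Cox6b2.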
